A study of Mus musculus with 10 samples.

Results

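The genes described here are 10 markers of pericytes and smooth muscle, taken by name from the 18193 genes that the array measured: Acta2, Tagln, Cnn1, Myh11, Des, Rgs5, Cspg4, Nes, Pdgfrb and Notch3. They were read by 22 of the 45037 probe sets tested, counting probe sets annotated to that gene alone. For each gene the probe set with the highest mean signal over the 10 arrays was its main probe set, and the others are given beside it. The tumors were spontaneous mammary tumors of female FVB/N-Tg(MMTVneu) mice, in which the MMTV promoter drives the neu proto-oncogene in mammary epithelium. Lovastatin (Lov), an inhibitor of HMG-CoA reductase, was given intraperitoneally at 10 mg/kg 3 times a week for 6 weeks in 1 group, and ethanol as the vehicle (Vhcl) on the same schedule in the other. Tumors Vhcl A45, A49, A54, A59 and AB11 and tumors Lov A19, A48, A50, A55 and AB10 made up the groups, with 1 array per tumor. A free-text label calls the control tumors not treated, whereas their treatment label says vehicle. Whether each tumor came from a separate mouse is not said in the labels, so the p-values measure the spread between these samples.

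Pericytes and vascular smooth muscle cells are the mural cells that wrap endothelial tubes. They are recruited by endothelial PDGF-B acting on the receptor PDGFR-beta, and Notch3 signaling keeps their contractile state. Contractile mural cells carry smooth muscle alpha-actin and its partner proteins, while pericytes of growing vessels are better marked by Rgs5, NG2 (Cspg4), desmin and nestin. None of these markers belongs to mural cells alone. The basal, or myoepithelial, layer of the mammary gland and activated fibroblasts also make smooth muscle actin, skeletal muscle makes desmin, and neural and some tumor cells make nestin. The study used nestin staining beside the endothelial protein CD31 (Pecam1) to score pericyte coverage by how far both stains overlapped. The arrays measured the transcripts of both proteins, without position.

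Each value is a log2 signal as deposited, so a difference of 1 is a doubling. Array medians ran from 4.97 to 5.05. As a measure of RNA quality, the beta-actin probe set at the 3' end exceeded that at the 5' end by 0.80 to 1.35 (log2) in Vhcl and 0.67 to 1.07 in Lov tumors, and this excess is larger in degraded RNA. The mean log2 signal of 10 skeletal muscle markers was 7.92 in Vhcl A54, 7.88 in Vhcl A59 and 7.73 in Lov A55. It was 5.78 in Vhcl AB11 and 4.48 to 5.00 in the other 6 tumors, and group differences that rest on those 3 tumors are also given without them. The RNA came from whole tumors, in which fewer cells of a type and less RNA per cell cannot be told apart.

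None of the 10 genes passed the test between Lov and Vhcl tumors after correction. At a false discovery rate of 0.05 (limma, moderated test, Benjamini-Hochberg over all probe sets) 0 of 10 main probe sets were called, against a background of 0.0% of 45037, and the adjusted p-values of the 10 ran from 0.928 to 0.998. Before adjustment, limma called 1 of the 10 at p under 0.05, Nes, and it was higher with Lov. Over the main probe sets of all 18193 genes, 6.24% were called at that level, 3.5% higher and 2.75% lower with Lov. The main differences were positive in 4 genes and negative in 6, with a median of -0.03, against 50.7% positive and a median of 0.002 over all genes. All 10 overlapped between the groups, as against 0.693% of all genes whose groups did not overlap. Counted by probe set, 6 of 22 were at an unadjusted p under 0.05, all higher in Lov tumors, 3 of Rgs5, 2 of Nes and 1 of Acta2, and 14 of the 22 differences were positive (52.7% over all probe sets). The share over all 45037 probe sets was 5.28%, with 3.13% higher and 2.16% lower. Probe sets of 1 gene share its transcripts and are not separate observations. The probe set of Acta2 among the 6, 1444105_at, had a mean signal of 3.29, under the median of 5.02 over all probe sets.

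**Figure D1:**
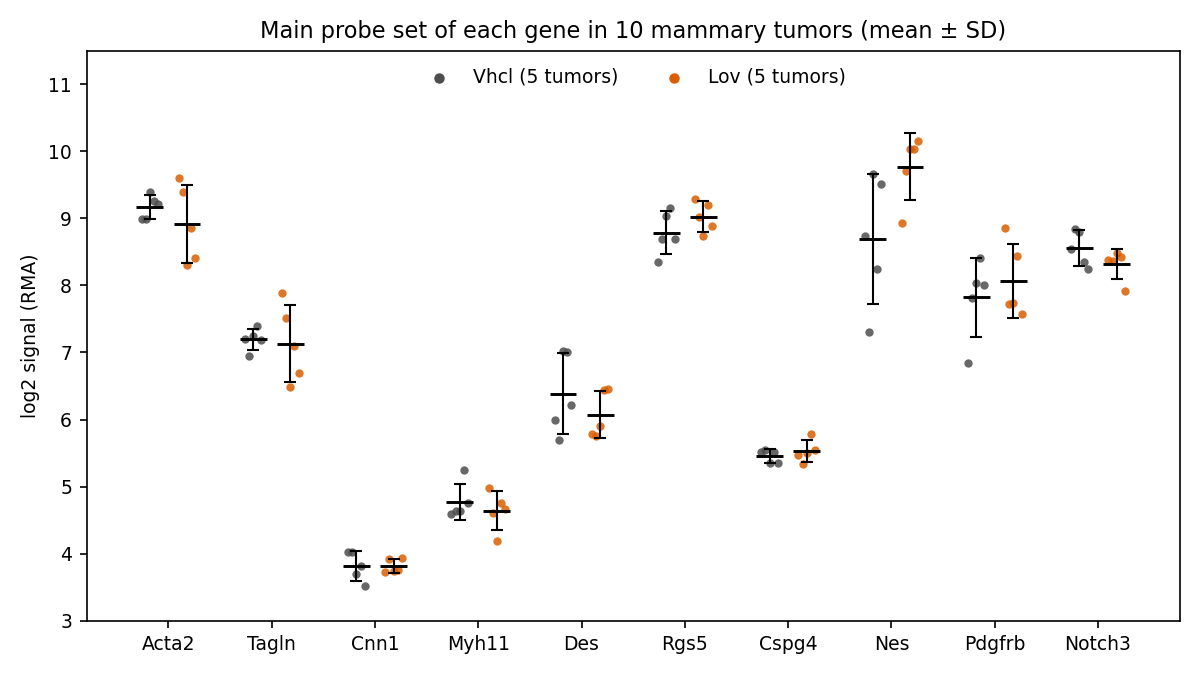
Log2 signal (vertical axis) of the main probe set of each of the 10 genes in 5 Vhcl (grey) and 5 Lov (orange) tumors, 1 point per tumor, with the mean and SD. The groups overlap for every gene, and the mean of Nes was 9.77 with Lov and 8.69 with Vhcl.

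**Figure D2:**
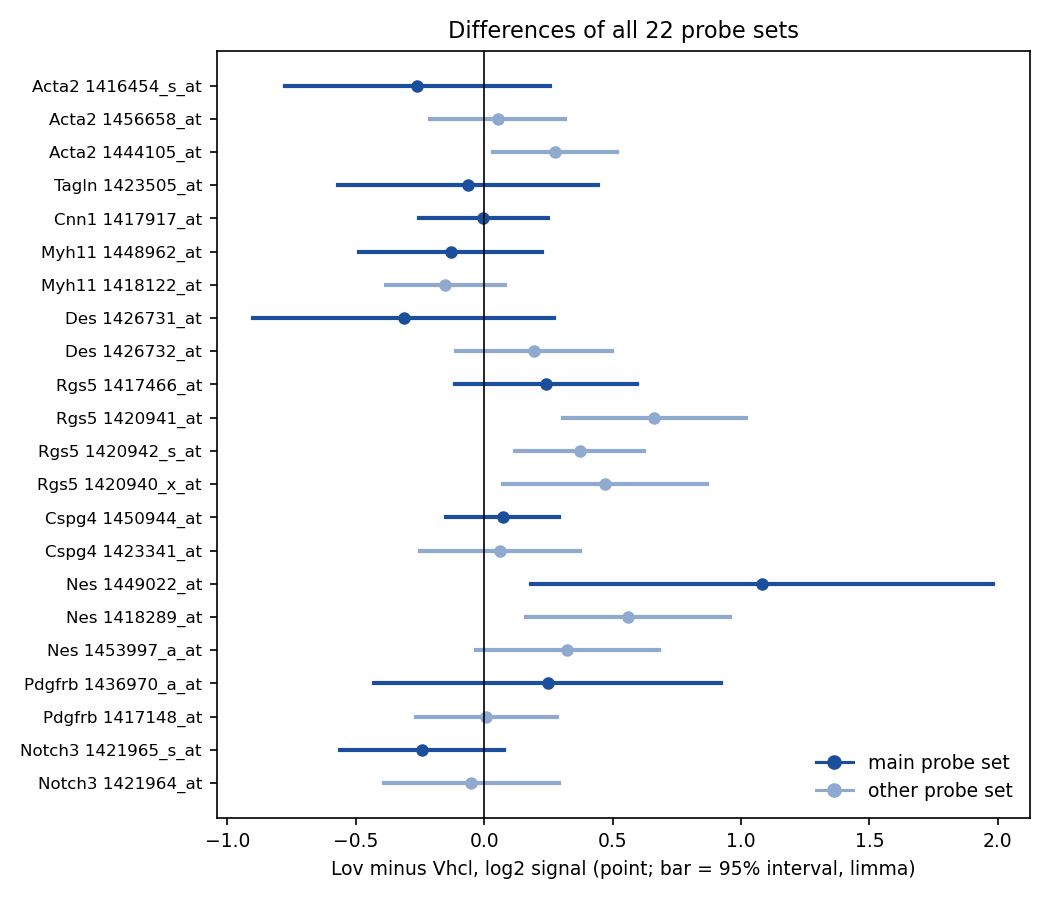
Lov minus Vhcl log2 difference (horizontal axis) of all 22 probe sets, with the 95% interval from limma, dark for main and light for other probe sets. The intervals of 6 probe sets lie wholly above 0 before correction, and those of the other 16 span 0.

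Acta2 encodes smooth muscle alpha-actin, the main actin of contractile mural cells and of myoepithelium. Its main probe set, 1416454_s_at, read 8.99, 8.99, 9.40, 9.26 and 9.22 in Vhcl A45, A49, A54, A59 and AB11. In Lov A19, A48, A50, A55 and AB10 it read 9.60, 9.40, 8.30, 8.85 and 8.41. The Vhcl tumors lay close together, while the Lov tumors held both the highest value and the 3 lowest. Acta2 averaged 9.17 ± 0.18 (SD, n = 5) in the Vhcl and 8.91 ± 0.58 in the Lov tumors, a log2 difference of -0.26 (standard error 0.24; limma, adjusted p = 0.988; exact permutation test, 2-sided p = 0.381). Without Lov A19 the difference was -0.43 (limma, adjusted p = 0.805), and without Lov A50 it was -0.11 (limma, adjusted p = 0.996). The ending _s_at marks a probe set that can bind more than 1 transcript.

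The other probe sets of Acta2 had mean signals of 3.52 (1456658_at) and 3.29 (1444105_at), under the median of 5.02 over all probe sets. The first differed by 0.05 (standard error 0.12). The second differed by 0.28 (standard error 0.11; limma, adjusted p = 0.932; exact permutation test, 2-sided p = 0.0397) and lay higher in Lov in 22 of 25 pairings of a Lov with a Vhcl tumor. Over the 10 tumors, r with the main probe set was 0.03 for the first and -0.56 for the second. The probe sets of Acta2 gave no common direction, but the mean signals of these 2 ranked at percentiles 19.6 and 14.2 of all probe sets. The main probe set ranked at 93.9, so the 2 dim ones say little about Acta2.

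Serum response factor (SRF) with myocardin-family cofactors acts on smooth muscle genes through CArG boxes, which begin with CC, end with GG and hold only A and T in the 6 bases between. RefSeq promoter windows of 300 bases (250 before and 50 after the start) were matched for 7 of the 10 genes, Acta2, Cnn1, Des, Rgs5, Cspg4, Nes and Notch3. The window of Acta2 is shown because it alone among them held CArG-like letters. It lies at chr19:34255324-34255623 on the minus strand of GRCm38.p6, and the capitals mark both CArG boxes that have 1 G or C among the A and T bases:

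Acta2 promoter: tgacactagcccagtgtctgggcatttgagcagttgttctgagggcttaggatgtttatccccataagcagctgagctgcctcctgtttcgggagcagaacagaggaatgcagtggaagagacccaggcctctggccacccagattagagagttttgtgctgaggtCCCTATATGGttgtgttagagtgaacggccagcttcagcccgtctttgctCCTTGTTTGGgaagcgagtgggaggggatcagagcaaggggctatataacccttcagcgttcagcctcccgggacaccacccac

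The first box, CCCTATATGG, begins at -84 and the second, CCTTGTTTGG, at -34, counted from the RefSeq start used for the window. Whether transcription begins at that base was not tested. A search of both strands found a box with 1 such mismatch in 8.5% of all 32851 windows of the table and an exact box in 1.63%. None of the 7 windows held an exact box. The motif GTGGGAA of RBP-J, the factor through which Notch receptors act, was searched on both strands and was in 0 of the 7 windows and in 6.38% of all. These are matches of letters only, and the arrays did not measure binding.

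Tagln encodes transgelin (SM22), an actin-binding protein of smooth muscle and of myofibroblasts, and it was read by 1 probe set (1423505_at). It read 7.20, 6.95, 7.25, 7.39 and 7.19 in the Vhcl tumors and 7.88, 7.51, 6.49, 7.09 and 6.69 in the Lov tumors, in the order above. Lov A19 and Lov A48 were the highest of the 10 and Lov A50 and Lov AB10 the lowest. In Acta2 the same tumors were highest and lowest, with Vhcl A54 level with Lov A48. The difference was -0.06 (standard error 0.23; limma, adjusted p = 0.998; exact permutation test, 2-sided p = 0.825), with a 95% interval from -0.57 to 0.44.

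Cnn1 encodes calponin, which binds actin and restrains contraction in differentiated smooth muscle. Its single probe set (1417917_at) read 3.52 to 4.03 in Vhcl and 3.72 to 3.93 in Lov tumors, under the median of all probe sets, and the means were 3.82 ± 0.22 (SD, n = 5) and 3.81 ± 0.10. Myh11, the smooth muscle myosin heavy chain and the most restricted contractile marker, read 4.59 to 5.24 in Vhcl and 4.19 to 4.98 in Lov tumors. Its difference was -0.13 (standard error 0.16; limma, adjusted p = 0.988) by the main probe set 1448962_at and -0.15 (standard error 0.11; limma, adjusted p = 0.979) by 1418122_at. Both Myh11 probe sets also had a mean signal under the median.

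Acta2, Tagln, Cnn1 and Myh11 are shared with basal epithelium, so 11 basal markers were read beside them. By limma none of the 11 had an unadjusted p under 0.05, which in so few genes is near the 6.24% of all genes called. The median difference of the 11 was -0.04. Their mean log2 signal was 5.03 to 5.33 in Vhcl and 5.12 to 5.43 in Lov tumors, and 5 of the 11 had a mean under the median of all probe sets. Of the defining basal genes, Krt14 read 4.21 to 4.83 in Vhcl and 4.22 to 4.59 in Lov tumors, and Krt5 read 5.23 to 5.82 and 5.39 to 6.19. Among the 11, Oxtr ranged widest over the tumors, from 5.35 to 8.82, so it weighs most in how their mean varied. With the basal mean, Acta2 gave r = -0.38 over the 10 tumors (permutation p adjusted over 85 relations = 0.682) and Tagln gave r = -0.45 (adjusted permutation p = 0.589). The part of basal cells in the signal of the 4 contractile genes was not tested beyond these values.

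Desmin (Des) is the intermediate filament of muscle and of part of the pericytes. Its main probe set, 1426731_at, read 6.0, 5.69, 7.02, 7.0 and 6.22 in the Vhcl tumors and 5.79, 5.76, 5.91, 6.44 and 6.46 in the Lov tumors. The highest values were those of Vhcl A54 and Vhcl A59, both high in skeletal muscle markers, and Lov A55, the remaining such tumor, was the second highest of its group. The difference was -0.31 (standard error 0.27; limma, adjusted p = 0.987; exact permutation test, 2-sided p = 0.357). Without those 3 tumors it was 0.01. Vhcl A54 and Vhcl A59 also had the largest 3' excess of beta-actin (1.20 and 1.35), and with that excess as a covariate the difference of Des was -0.04 (limma, adjusted p = 0.985). The parts of skeletal muscle and of RNA quality in it were not tested apart. Because the tumors fall into separate clusters of skeletal muscle signal, no pooled correlation is given. The other probe set of Des, 1426732_at, differed by 0.19 (standard error 0.14; limma, adjusted p = 0.979), opposite in sign.

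Nestin (Nes) is an intermediate filament of progenitor and neural cells and of pericytes in new vessels. It had the largest difference of the 10 genes by its main probe set, 1449022_at. The signal was 8.73, 7.30, 9.66, 8.24 and 9.52 in the Vhcl tumors and 8.93, 9.70, 10.03, 10.04 and 10.16 in the Lov tumors. All Lov tumors but A19 were above every Vhcl tumor, and Lov A19 lay under Vhcl A54 and Vhcl AB11.

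Nes averaged 9.77 ± 0.50 (SD, n = 5) in the Lov and 8.69 ± 0.97 in the Vhcl tumors, so that Lov was 2.12-fold higher. The log2 difference was 1.08 (standard error 0.41) with a 95% interval from 0.18 to 1.98, and it did not pass the correction (limma, unadjusted p = 0.0225, adjusted p = 0.928; exact permutation test, 2-sided p = 0.0556). Lov was higher in 23 of 25 pairings. Leaving out 1 tumor at a time gave 0.73 to 1.32, and the unadjusted p by limma was 0.0505 without Vhcl A59 and 0.0535 without Lov AB10. Without Lov A19 the difference was 1.29 (limma, unadjusted p = 0.0099, adjusted p = 0.631).

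The probe set 1418289_at of Nes followed the main probe set over the tumors (r = 0.91 over 10 tumors). It read 6.72, 6.06, 6.73, 6.13 and 6.76 in Vhcl and 6.63, 7.01, 7.20, 7.39 and 6.97 in Lov tumors, a 1.47-fold difference (log2 0.56, standard error 0.18; limma, adjusted p = 0.919; exact permutation test, 2-sided p = 0.0317). The third probe set, 1453997_a_at, had a mean signal under the median and differed by 0.32 (standard error 0.16; limma, adjusted p = 0.961; exact permutation test, 2-sided p = 0.0952). All 3 probe sets of Nes thus had the same sign.

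Other cells that can carry nestin were read beside it. The 3 tumors high in skeletal muscle markers read 9.66, 8.24 and 10.04 for Nes, and without them the difference was 1.19 (limma, unadjusted p = 0.0393, adjusted p = 0.999). By the probe set 1418289_at the difference without them was 0.44 (limma, unadjusted p = 0.0626, adjusted p = 0.999). The mean of 7 Schwann and neural markers was 6.49 to 7.04 in Vhcl and 6.54 to 6.97 in Lov tumors. Limma called 0 of these 7 markers before adjustment (p under 0.05), near the 6.24% of all genes called. Among them Sox10, a factor of neural crest that mammary epithelium also makes, differed by 0.29 (standard error 0.16; limma, adjusted p = 0.971). Cd24a, which encodes the surface protein CD24 by which the study sorted tumor cells, varied with Nes over the 10 tumors (r = 0.96, and 0.94 with the group means removed). It read 11.4 to 12.61 and differed by 0.45 (limma, adjusted p = 0.928). It was found in a search for genes most like Nes, so its r was chosen to be high. The part of tumor and neural cells in the Nes signal was not tested beyond these values.

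Rgs5, a regulator of G protein signaling, is among the most selective pericyte transcripts. Its main probe set, 1417466_at, read 8.35, 8.69, 9.03, 9.16 and 8.69 in the Vhcl tumors and 9.29, 9.02, 8.73, 9.20 and 8.88 in the Lov tumors. These overlapped widely, with means of 8.78 ± 0.32 (SD, n = 5) and 9.02 ± 0.23 and a difference of 0.24 (standard error 0.16; limma, adjusted p = 0.979; exact permutation test, 2-sided p = 0.190). Without Vhcl A45 the difference was 0.13.

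The probe set 1420941_at of Rgs5 read 7.86, 7.98, 8.16, 8.15 and 7.82 in Vhcl and 8.70, 8.48, 8.23, 8.65 and 9.21 in Lov tumors. Every Lov tumor was above every Vhcl tumor, the only such separation among the 22 probe sets, against 0.344% of all probe sets separated in that direction and 0.602% in either. The means were 8.65 ± 0.36 (SD, n = 5) and 7.99 ± 0.16, a 1.58-fold difference (log2 0.66, standard error 0.16; limma, unadjusted p = 0.00168, adjusted p = 0.919). The exact permutation test gave a 2-sided p of 0.00794, the smallest that 5 against 5 tumors allow.

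The third Rgs5 probe set, 1420942_s_at, read 5.82 to 6.37 in Vhcl and 6.35 to 6.66 in Lov tumors, and only Vhcl A49 lay above a Lov tumor, A50. It differed by 0.37 (standard error 0.12; limma, adjusted p = 0.919; exact permutation test, 2-sided p = 0.0159). The fourth, 1420940_x_at, differed by 0.47 (standard error 0.18; limma, adjusted p = 0.928; exact permutation test, 2-sided p = 0.0476), with Lov AB10 at 5.24, inside the Vhcl range of 4.99 to 5.71. The endings _s_at and _x_at mark probe sets that can bind other transcripts.

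All 4 probe sets of Rgs5 were higher with Lov, yet they ranked the tumors differently. Over the 10 tumors, r with the main probe set was 0.55 for 1420941_at, 0.57 for 1420942_s_at and 0.16 for 1420940_x_at. Lov AB10 was the highest of all tumors by 1420941_at and the lowest Lov tumor by 1420940_x_at. The mean of the 4 probe sets differed by 0.44 (limma over gene means, unadjusted p = 0.000472, adjusted p = 0.505), and with the 3' excess of beta-actin as a covariate the main probe set differed by 0.40 (limma, unadjusted p = 0.0199, adjusted p = 0.774). With that covariate the difference of 1420940_x_at was 0.30 (limma, unadjusted p = 0.102). Which transcripts of Rgs5 each probe set reads was not tested.

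**Figure D3:**
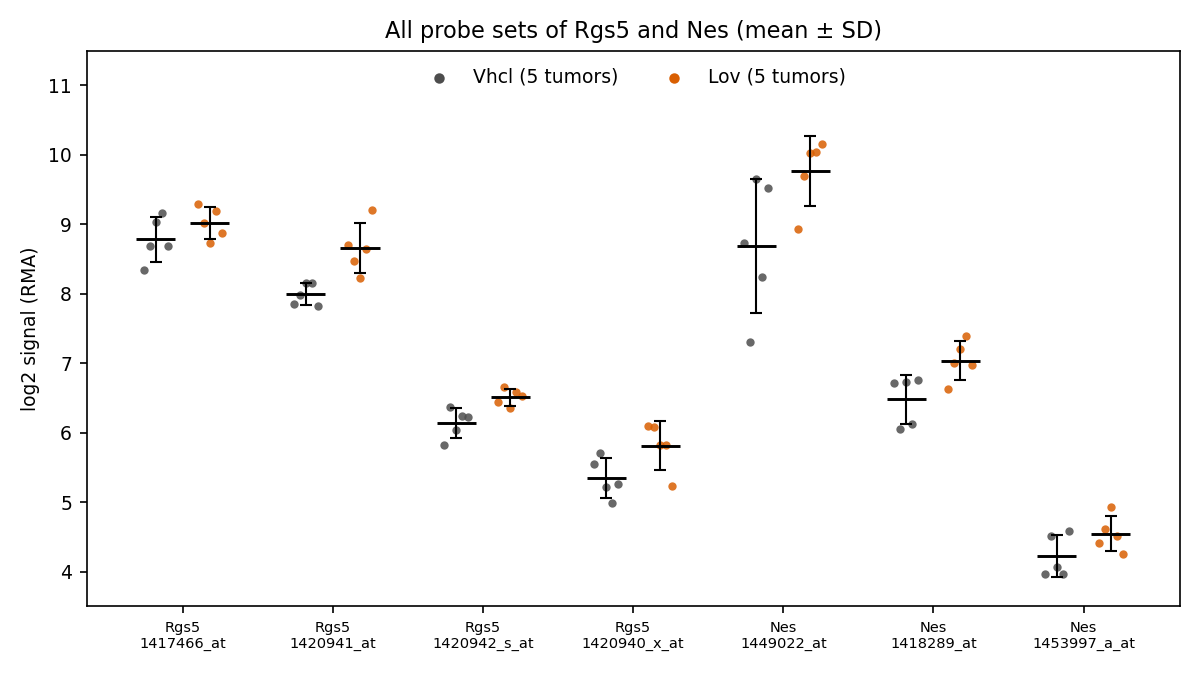
Log2 signal (vertical axis) of the 4 probe sets of Rgs5 and the 3 of Nes in 5 Vhcl (grey) and 5 Lov (orange) tumors, 1 point per tumor, with the mean and SD. The Lov tumors sit between 8.23 and 9.21 for Rgs5 1420941_at, above the Vhcl tumors at 7.82 to 8.16, while the groups overlap for the other 6 probe sets.

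Pdgfrb encodes PDGFR-beta, the receptor through which mural cells are recruited. Its main probe set, 1436970_a_at, read 6.84, 7.81, 8.04, 8.41 and 8.0 in the Vhcl tumors and 8.86, 7.72, 7.74, 8.44 and 7.58 in the Lov tumors. Vhcl A45 was the lowest of the 10 and Lov A19 the highest, and the other 8 tumors were mixed. The difference was 0.25 (standard error 0.31; limma, adjusted p = 0.988; exact permutation test, 2-sided p = 0.548), and the probe set 1417148_at gave 0.01 (standard error 0.13). The main difference was 0.003 without Vhcl A45, 0.05 without Lov A19, 0.16 without Lov A55 and 0.40 without Vhcl A59, and with the 3' excess of beta-actin as a covariate it was 0.50 (limma, adjusted p = 0.817).

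Notch3, the Notch receptor of arterial smooth muscle and pericytes, read 8.55, 8.84, 8.80, 8.35 and 8.25 in the Vhcl tumors and 8.38, 8.37, 8.49, 8.42 and 7.92 in the Lov tumors by 1421965_s_at. The tumors overlapped, with the lowest value in Lov AB10 and the 3 highest in Vhcl tumors. The difference was -0.24 (standard error 0.15; limma, adjusted p = 0.971; exact permutation test, 2-sided p = 0.190). By 1421964_at it was -0.05 (standard error 0.16).

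Cspg4 encodes the proteoglycan NG2, a pericyte surface marker that glial progenitors also carry. It read 5.35 to 5.55 in Vhcl and 5.33 to 5.79 in Lov tumors by 1450944_at, a range of 0.46 over all 10 tumors that was the narrowest of the 10 genes. The difference was 0.07 (standard error 0.10; limma, adjusted p = 0.988), with a 95% interval from -0.15 to 0.29, and 0.06 by 1423341_at.

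To set the mural transcripts beside an endothelial one, each gene was also read as its log2 signal minus that of Pecam1 in the same tumor, which is a ratio of transcripts in whole-tumor RNA and no measure of where the proteins lie. Pecam1 averaged 5.86 ± 0.17 (SD, n = 5) in the Vhcl and 5.95 ± 0.33 in the Lov tumors. Relative to it, 0 of 10 genes differed at an exact permutation p under 0.05. No share over all genes is given for this ratio, so the count has no background beside it. Nes minus Pecam1 was 3.06, 1.33, 3.92, 2.38 and 3.44 in the Vhcl tumors and 2.59, 3.45, 4.17, 4.48 and 4.40 in the Lov tumors, so that the 3 highest values were those of Lov tumors and the 2 lowest those of Vhcl tumors. The difference between the groups was 0.99 (exact permutation test, 2-sided p = 0.111), and 1.30 (p = 0.0476 by the same exact test) without Lov A19. Acta2 gave -0.35 (exact permutation p = 0.151), Notch3 -0.33 (exact permutation p = 0.175) and Rgs5 0.15 (exact permutation p = 0.516). For Rgs5 the mean of all its probe sets, taken with the mean of those of Pecam1, gave 0.35 (exact permutation p = 0.0317). These p-values are not adjusted over the 10 genes.

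Over the tumors, 24 of the 45 pairs of genes had a positive r by their main probe sets. With the means of 4 cell type lists 85 relations were computed, of which 2 had an adjusted permutation p under 0.05. Acta2 and Tagln went together (Pearson's r = 0.94, permutation p = 6e-05, adjusted p = 0.0051; Spearman's rho = 0.94, permutation p = 0.00022, adjusted p = 0.0187; n = 10). Without Lov A50 and Lov AB10, farthest from the median in Acta2, r was 0.85, and with the group means removed it was 0.96. The order of the tumors in both genes ran from Lov A50 and Lov AB10 at the bottom to Lov A19 at the top, with all 5 Vhcl tumors between.

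Rgs5 and Pdgfrb gave r = 0.88 (permutation p = 0.00089, adjusted p = 0.0378) and rho = 0.78 (permutation p = 0.0114, adjusted p = 0.323; n = 10). Without Vhcl A45 and Lov A19, at the ends of Rgs5, r was 0.67 and no longer passed in the 8 tumors remaining (permutation p = 0.0790). Among those 8, Vhcl A54, Vhcl A59 and Lov A55, high in skeletal muscle markers, read highest in both genes. Their values were 9.03, 9.16 and 9.20 for Rgs5 and 8.04, 8.41 and 8.44 for Pdgfrb. The relation was not tested without them. With the group means removed in all 10, r of Rgs5 with Pdgfrb was 0.89. These values are of the main probe sets alone. Over the 10 tumors, the main probe set of Rgs5 had r = 0.55 with 1420941_at, and that of Pdgfrb had r = 0.54 with 1417148_at. The relation may therefore not hold by other probe sets. With Acta2, Myh11 gave r = 0.59 (adjusted permutation p = 0.556) and Cnn1 gave r = -0.23 (adjusted permutation p = 0.818), both with mean signals under the median. By main probe sets too, Nes gave r = 0.18 with Rgs5, -0.02 with Pdgfrb and -0.31 with the mean of the endothelial markers. None had an adjusted permutation p under 0.05 (0.757 for the last).

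Fibroblast markers were read beside Acta2 and Tagln, which activated fibroblasts also make. The mean of 10 such genes was 6.82 to 8.29 in Vhcl and 5.80 to 8.15 in Lov tumors, lowest in Lov A50. It gave r = 0.76 with Acta2 (adjusted permutation p = 0.238), and 0.31 without Lov A50 and Lov AB10. With Tagln it gave r = 0.74 (adjusted permutation p = 0.252), and 0.63 without Lov A19 and Lov A50. The share of fibroblasts in either signal was not tested.

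**Figure D4:**
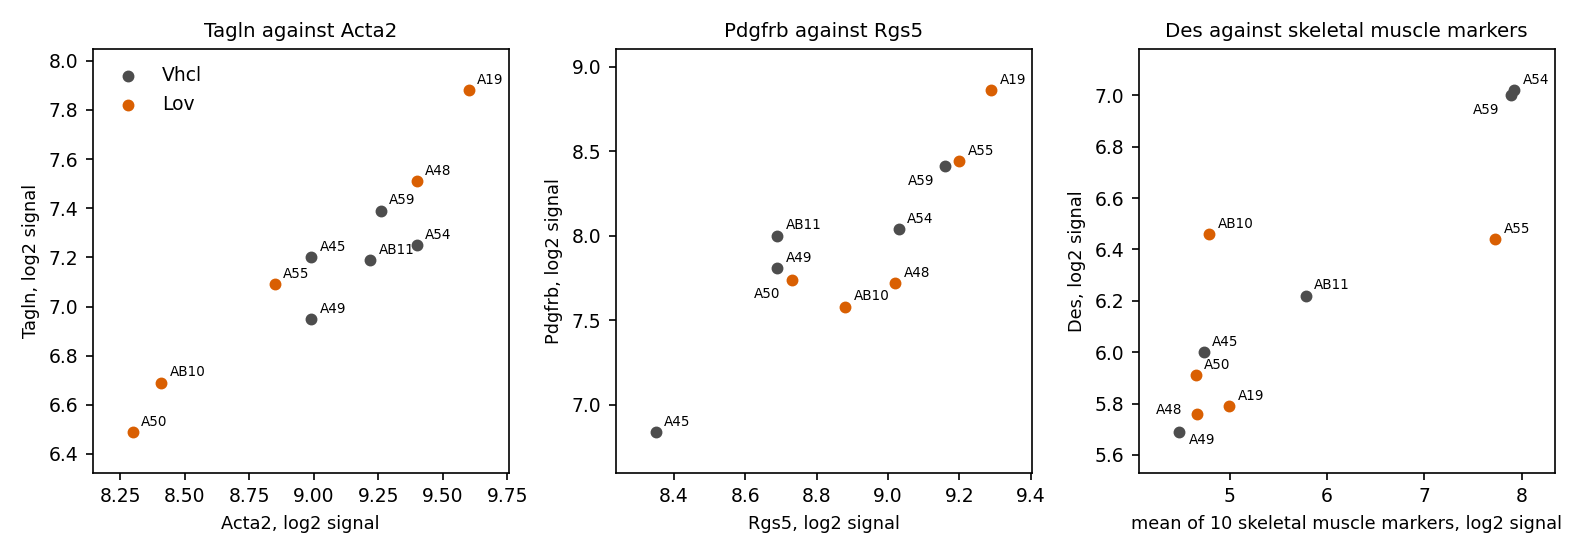
Log2 signal of Tagln against Acta2 (left), Pdgfrb against Rgs5 (middle) and Des against the mean of 10 skeletal muscle markers (right), 1 point per tumor, Vhcl grey and Lov orange, labelled by tumor. Acta2 and Tagln place the tumors along 1 line (r = 0.94), Vhcl A45 and Lov A19 lie at the ends of Rgs5 and Pdgfrb, and Vhcl A54, Vhcl A59 and Lov A55 stand apart in skeletal muscle signal, at 7.73 to 7.92.

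The genes whose main probe sets were most like a marker over the 10 tumors were sought among 9088 genes with a mean above the median of all genes, the 10 markers left out, as a description. For Acta2 they were Alox5ap (r = 0.91), Npl (r = 0.91) and Fabp4 (r = 0.90), for Rgs5 Nisch (r = 0.95), Zfp503 (r = 0.90) and Il1r1 (r = 0.90), and for Nes Zfp185 (r = 0.97), Fblim1 (r = 0.97) and Cd24a (r = 0.96). Among the 10 markers, Tagln had r = 0.94 with Acta2.

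The wider machinery of these cells showed no call at a false discovery rate of 0.05 in any list. Of 19 other smooth muscle contractile genes, 1 was higher with Lov and 1 lower at an unadjusted p under 0.05 by limma, with a median difference of -0.03 (6.24% of all genes were called in either direction). With 1 tumor left out the count of 2 ran from 1, without Vhcl A49, Vhcl A59 or Lov A50, to 3. The higher was Mylk, the kinase that activates smooth muscle myosin, at 0.57 (standard error 0.23; limma, adjusted p = 0.932), and it lay at 6.17 to 7.35 in Vhcl and 6.96 to 7.69 in Lov tumors. The lower was Pdlim7, a scaffold protein of actin fibers, at -0.44 (standard error 0.17; limma, adjusted p = 0.928). Of 7 genes of SRF and its cofactors, 0 were called, with Srf at -0.13 (standard error 0.18) and Myocd, which encodes myocardin, at -0.03 (standard error 0.10).

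Among 17 further pericyte genes limma called 2 higher and 0 lower by the same unadjusted threshold (3.5% and 2.75% of all genes), with a median difference of 0.11. With 1 tumor left out the count of 2 ran from 0, without Lov A50, to 3, without Vhcl AB11 or Lov AB10. It was 1 without Vhcl A54 or Lov A55. The count was 0 without the 3 tumors high in skeletal muscle markers, and 3 without Lov A19 and Vhcl AB11. The 2 called over all tumors were Gucy1b1 (0.36, standard error 0.13) and Gucy1a1 (0.41, standard error 0.18), which encode the subunits of the soluble guanylate cyclase that nitric oxide activates (limma, adjusted p = 0.928 and 0.932). Both had signals of 3.91 to 5.18, and 9 of the 17 genes had a mean under the median of all probe sets. Angpt1, the mural ligand of the endothelial receptor Tie2, differed by -1.30 (standard error 0.61; limma, adjusted p = 0.953), with Vhcl A49 at 7.48, Vhcl A59 at 5.88 and Vhcl A54 at 5.11 above all other tumors, which read 3.24 to 4.42. Without Vhcl A49 the difference was -0.74.

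Of the 5 PDGF ligands and receptors beside Pdgfrb, 0 were called at an unadjusted p under 0.05 by limma (6.24% of all genes in either direction). Pdgfb, the endothelial ligand that recruits mural cells, differed by 0.01 (standard error 0.18; limma, adjusted p = 0.998). Of 13 Notch ligands, receptors and targets 0 were called. The lowest p among them was that of the receptor Notch2 (0.49, standard error 0.25; limma, adjusted p = 0.961), at 0.22 without Lov AB10, followed by the target Hey1 (0.33, standard error 0.17; limma, adjusted p = 0.971). Of 13 genes of the TGF-beta pathway, which drives contractile differentiation of mural cells, limma called 2 lower and 0 higher by that unadjusted threshold (2.75% and 3.5% of all genes). They were the co-receptor Tgfbr3 (-0.38, standard error 0.12) and the ligand Tgfb3 (-0.61, standard error 0.21), with limma adjusted p-values of 0.919 and 0.920. The count was 2 to 3 with 1 tumor left out, 1 without the 3 tumors high in skeletal muscle markers and 4 without Lov A19 and Vhcl AB11. Of 12 endothelial markers 0 were called, near the 6.24% of all genes called in either direction. The mean of the 12 was 5.55 to 5.88 in Vhcl and 5.63 to 6.24 in Lov tumors.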

How the data were processed

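Total RNA of 10 mammary tumors (5 Vhcl, 5 Lov) was hybridized to Affymetrix mouse arrays, 1 per tumor. The authors summarized and normalized the intensities by RMA with the affy package (version not given in the sources used here) and deposited log2 signals. The arrays have no sequencing depth, and their number limits the precision. Groups, dose and schedule came from the labels. The 64 array controls were left out, and 45037 probe sets were compared under R 4.3.3 by limma 3.58.1 (moderated test of a linear model, 2-sided, Benjamini-Hochberg over all). Of these, 34945 carried 1 gene symbol, standing for 18193 genes, 932 carried several and 9160 none. Of the 34945, 34741 matched a mouse gene table (GRCm38.p6, used for names alone).

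The 10 genes, the lists and the tests were chosen with earlier results of these data known. Named were the 10 genes, up to 4 genes with the lowest p of each other list, markers of other cell types beside a result, Pdgfb (outside this rule, for its role, after its values were seen), and the 3 genes most like Acta2, Rgs5 and Nes. Exact permutation tests enumerated all 252 assignments of tumors to groups, and correlations used 100000 permutations. Promoter windows came from RefSeq. In simulated data for this comparison (45037 probe sets), normal values were drawn independently for each probe set with its own mean and SD. Of 100 randomly chosen probe sets changed 2-fold, 71% were recovered at an FDR of 0.05, and of 100 changed 4-fold, 97%, with 16 false calls. These shares are over probe sets of any spread and do not carry over to a single variable gene such as Nes (standard error 0.41). Alternatives were weighting of the arrays, a robust prior with a trend, an unmoderated Student's t-test, centering, further quantile normalization, covariates (tumor ID prefix, beta-actin), filters on probe sets, other summaries of a gene, other endothelial references and leaving out tumors.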

Additional observations from a re-analysis of the deposited data

Results flagged for a closer look

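Within each group of 5 tumors, a value was set apart when its gap to the nearest other tumor was over 0.71 of the range of the group (Dixon's 95% limit). Of 112 groups tested 6 met this, about as many as chance gives at 5%. Myh11 was 5.24 in Vhcl A59 by 1448962_at, against 4.59 to 4.75 in the other Vhcl tumors, and Vhcl A59 was also among the 3 tumors high in skeletal muscle markers. Des was 5.01 in Lov A48 by 1426732_at, against 4.39 to 4.56, whereas by its main probe set Lov A48 was the lowest Lov tumor. Notch3 was 7.92 in Lov AB10 by 1421965_s_at, against 8.37 to 8.49 in the other Lov tumors. In the same tumor Notch2 was 9.85, against 8.38 to 8.66, and Pdlim7 was 5.88, against 6.48 to 6.64. Pdgfd, a ligand of PDGFR-beta, was 6.39 in Lov A19, against 7.5 to 7.93, in the tumor with the highest Pdgfrb signal.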

How the results depend on the processing

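Under all alternatives run, 0 of the 10 genes were called at an FDR of 0.05. The count at an unadjusted p under 0.05 by limma (1, Nes) was 0 by an unmoderated Student's t-test, 2 with a covariate for the tumor ID prefix (Nes and Notch3), 2 with the beta-actin covariate, 2 with all probe sets of a gene averaged and 2 without Vhcl A54, Vhcl A59 and Lov A55, an omission chosen after seeing the data (Rgs5 and Nes in each of these last 3). Leaving out 1 tumor at a time gave 0 to 1, with 0 without Vhcl A59 and without Lov AB10. The count relative to Pecam1 (0) was 1 with all probe sets averaged (Rgs5), and 0 to 1 with 1 tumor left out (1, Nes, without Lov A19). These counts too have no share over all genes beside them. The differences that turned in sign were small in each case and none was called. Acta2 turned to 0.0227 with all probe sets averaged and 0.052 without shared probe sets. Tagln turned to 0.0658 with the beta-actin covariate, 0.0292 without the 3 tumors and 0.0206 as a ratio of linear means (log2), and ran from -0.251 to 0.0965 with 1 tumor left out (positive without Lov A50 or Lov AB10). Cnn1 turned to 0.013 with array weights and ran from -0.078 to 0.0495 with 1 tumor left out (positive without Vhcl A45, Vhcl A49, Lov A19, Lov A50 or Lov A55). Myh11 turned to 0.031 with the beta-actin covariate, and Des to 0.01 and Cspg4 to -0.0075 without the 3 tumors. Relative to Pecam1, Cspg4 turned to 0.0475 with the endothelial mean and 0.0125 without Lov A19 and Vhcl AB11. With 1 tumor left out it ran from -0.182 to 0.106, Cnn1 from -0.222 to 0.0255 and Pdgfrb from -0.0385 to 0.319. The cause was not tested. The filter on dim probe sets removed Cnn1 and Myh11. No paired analysis was possible because the labels give no replicate numbers shared between the groups.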
